A study of Mus musculus with 19 samples.

Results

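The cell cycle and proliferation genes are 54 genes, of 35596 genes summed in the data, that were listed by name: 14 genes of S phase, when DNA is copied, and 40 genes of mitosis, when chromosomes are separated and the cell divides. They were followed in mRNA-seq libraries of the whole vomeronasal organ (VNO) of mice, taken on postnatal day 21, made from polyA+ RNA. In the AP-2εCre line, 3 libraries came from conditional knockouts (cKO; AP-2εCre+/-/Smad4 flox/flox), 3 from heterozygous AP-2εCre+/- controls and 3 from Smad4 flox/flox controls. In the OMPCre line, the same 3 genotypes with OMPCre+/- gave 3 libraries each. Wild type is the labels' word for the Smad4 flox/flox controls, whose genotype is taken from the study's methods. AP-2εCre acts in immature basal vomeronasal sensory neurons and OMPCre in mature neurons, apical and basal alike. Smad4 is the mediator shared by TGFβ and BMP signaling, and cells of the organ in which neither Cre acts, such as glands and vessels, are in the same RNA. The title of one more AP-2εCre library makes it a heterozygote and its genotype label a cKO, and it entered no comparison.

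The vomeronasal epithelium keeps making sensory neurons after birth, from dividing progenitors at its margins and its base. S-phase genes supply the machinery that licenses and copies DNA: the MCM helicase opens the double strand, the clamp Pcna holds the polymerase on it, and the factor E2f1 switches many of these genes on. Mitosis genes act later, under the kinase Cdk1 and its cyclins, and most are made only shortly before division. Both sets are transcribed in dividing cells of any type, including glands, vessels, bone and blood-forming marrow. In a whole organ, fewer dividing cells and less RNA per dividing cell cannot be told apart.

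The promoters of the 2 sets carry different sequence elements, and 7 of them are printed here because their genes carry the differences between genotypes described below, or depart from them. RefSeq (GRCm38.p6) gave a promoter of 300 bases, from 250 before to 50 after the annotated start, for 44 of the 54 genes. Capitals mark matches, on either strand, to the cell cycle genes homology region CHR (TTTGAA) and its variant (TTCGAA), the CCAAT box (CCAAT) and the E2F site (TTTCCCGC, TTTCGCGC, TTTGCCGC or TTTGGCGC). E2F sites that face each other can share bases, as in Mcm5. All are written 5′ to 3′ on the strand of the gene.
Mcm3, helicase subunit, chr1:20820263-20820562, minus strand: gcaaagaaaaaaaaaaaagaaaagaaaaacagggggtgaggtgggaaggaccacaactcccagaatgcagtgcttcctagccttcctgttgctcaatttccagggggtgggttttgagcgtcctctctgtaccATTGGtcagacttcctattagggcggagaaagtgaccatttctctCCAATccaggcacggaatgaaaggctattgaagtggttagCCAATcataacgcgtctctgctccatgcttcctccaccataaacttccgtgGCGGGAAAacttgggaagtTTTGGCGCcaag
Mcm5, helicase subunit, chr8:75109259-75109558, plus strand: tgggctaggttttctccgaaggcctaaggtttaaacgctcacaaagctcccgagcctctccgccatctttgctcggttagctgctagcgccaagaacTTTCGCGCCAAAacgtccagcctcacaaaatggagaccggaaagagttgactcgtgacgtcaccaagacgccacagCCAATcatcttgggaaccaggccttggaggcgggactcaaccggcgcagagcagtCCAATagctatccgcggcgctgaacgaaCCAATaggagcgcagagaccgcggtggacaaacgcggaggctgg
Mcm2, helicase subunit, chr6:88898731-88899030, minus strand: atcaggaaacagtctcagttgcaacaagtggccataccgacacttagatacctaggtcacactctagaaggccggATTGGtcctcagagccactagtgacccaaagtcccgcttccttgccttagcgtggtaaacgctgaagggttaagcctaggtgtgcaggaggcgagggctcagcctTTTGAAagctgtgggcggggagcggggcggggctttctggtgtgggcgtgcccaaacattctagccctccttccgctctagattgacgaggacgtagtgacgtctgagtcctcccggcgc
Bub1b, spindle checkpoint kinase, chr2:118597961-118598260, plus strand: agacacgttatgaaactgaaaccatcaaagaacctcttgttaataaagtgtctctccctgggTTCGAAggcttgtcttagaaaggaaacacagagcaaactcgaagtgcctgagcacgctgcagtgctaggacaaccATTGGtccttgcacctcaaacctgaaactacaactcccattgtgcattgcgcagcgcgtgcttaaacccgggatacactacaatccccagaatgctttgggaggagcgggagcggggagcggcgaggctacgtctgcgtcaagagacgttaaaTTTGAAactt
Cdc20, activator of the anaphase-promoting complex, chr4:118437294-118437593, minus strand: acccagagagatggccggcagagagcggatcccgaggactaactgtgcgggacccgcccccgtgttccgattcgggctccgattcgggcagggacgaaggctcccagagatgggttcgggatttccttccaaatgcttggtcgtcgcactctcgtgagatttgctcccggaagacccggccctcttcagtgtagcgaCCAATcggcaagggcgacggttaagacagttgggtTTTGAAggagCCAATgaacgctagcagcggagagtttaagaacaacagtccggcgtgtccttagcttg
Top2a, which untangles chromosomes before they part, chr11:99024140-99024439, minus strand: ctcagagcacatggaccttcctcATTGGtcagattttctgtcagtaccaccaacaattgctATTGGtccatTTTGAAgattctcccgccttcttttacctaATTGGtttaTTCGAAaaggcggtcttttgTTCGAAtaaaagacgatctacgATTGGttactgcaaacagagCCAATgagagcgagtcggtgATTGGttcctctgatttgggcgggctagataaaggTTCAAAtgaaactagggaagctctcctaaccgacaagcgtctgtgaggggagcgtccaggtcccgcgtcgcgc
Melk, a kinase, chr4:44300667-44300966, plus strand: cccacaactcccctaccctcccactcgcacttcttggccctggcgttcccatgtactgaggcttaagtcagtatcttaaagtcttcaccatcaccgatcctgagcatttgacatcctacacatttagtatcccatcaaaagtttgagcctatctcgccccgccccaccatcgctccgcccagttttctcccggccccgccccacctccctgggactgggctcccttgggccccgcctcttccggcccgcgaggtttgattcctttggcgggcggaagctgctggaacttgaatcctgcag

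A CHR stood in 26 of the 32 mitosis promoters (81.2%), in 2 of the 12 S-phase promoters and in 17.9% of all 32851 promoters of the same length. A CCAAT box stood in 26 of the 32 mitosis promoters, in 8 of the 12 S-phase promoters and in 37.4% of all. Both elements stood together in 23 mitosis promoters (71.9%) against 6.95% of all promoters. An E2F site stood in 6 of the 12 S-phase promoters (Mcm3, Mcm5, Mcm6, Mcm7, Cdt1 and Cdc6), in 2 mitosis promoters (Cdk1 and Ncapg) and in 2.26% of all. The CHR variant was rare, in 3 mitosis promoters and 1 S-phase promoter against 1.56% of all. Of the 33 CHR matches in mitosis promoters, 25 lay within 50 bases of the start, whereas the CCAAT boxes lay mostly before it, with a median distance of -71 bases. The windows of Melk, E2f1, Tyms, Birc5 and Nuf2 held none of these letters. A match is a string of letters and not a bound site.

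**Figure D1:**
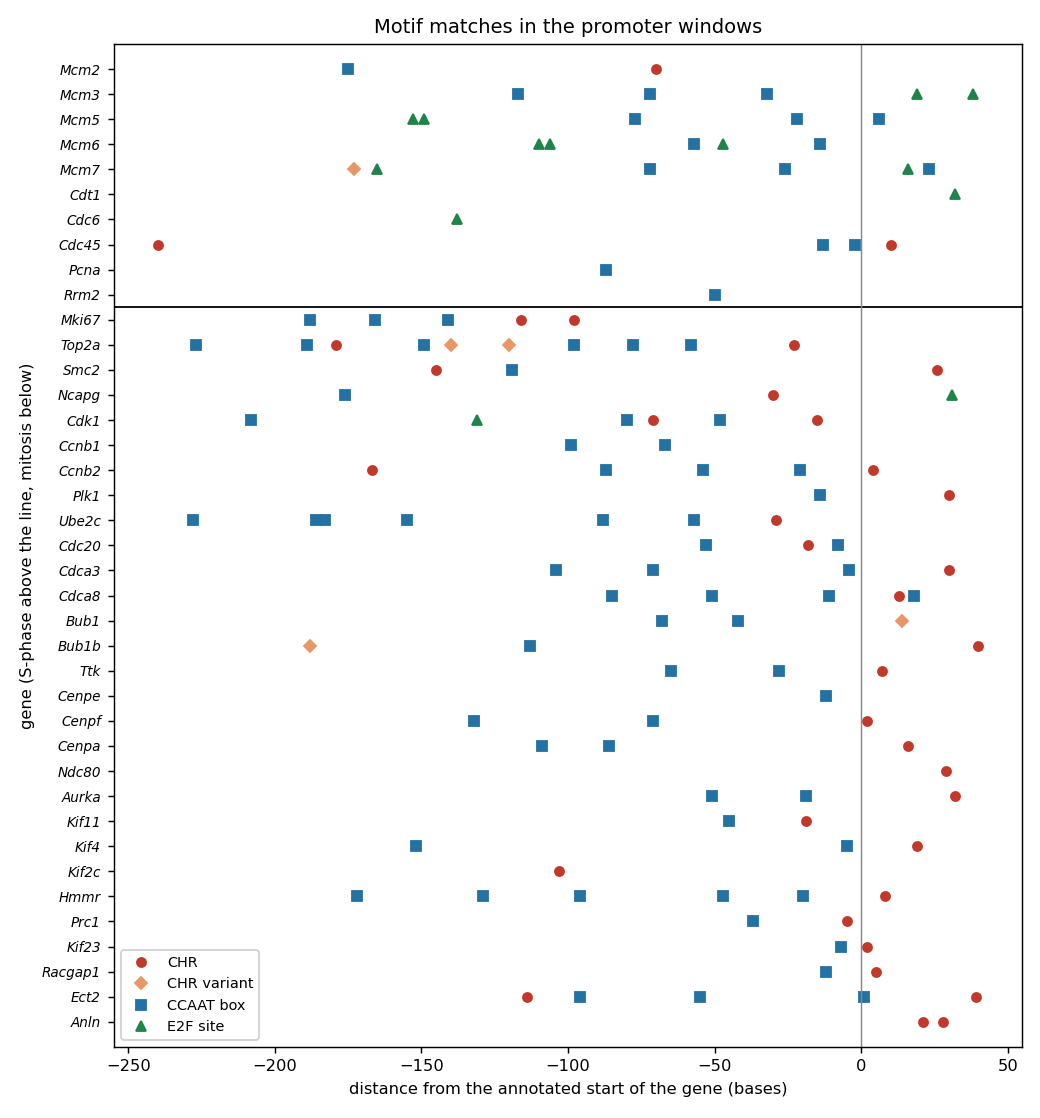
Positions of motif matches in the 39 promoters that hold at least 1, by distance from the annotated start in bases (horizontal axis) and gene (vertical axis). Circles mark the CHR, diamonds its variant, squares CCAAT boxes and triangles E2F sites. In mitosis genes, 25 of 33 CHR matches lie within 50 bases of the start, and E2F sites lie mainly in S-phase promoters.

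Levels between genes are compared per transcript length, as TPM, over the 12 controls of both lines. Pcna was highest, with 43.8 ± 12.5 TPM (SD, n = 12), followed by Mcm2 with 30.6 ± 13.5 TPM and the condensin subunit Smc4 with 22.8 ± 12.5 TPM. The kinetochore kinases Bub1, with 1.08 ± 0.391 TPM, and Ttk, with 0.866 ± 0.357 TPM, were lowest. No neighbors in this order of 54 genes differed by more than the larger of their SDs. Every gene passed the filter on low counts in each comparison, and the lowest estimated count of any of them in the 18 libraries was 52. Of the counts of Gins2, Cenpa and Smc4, 31.2%, 33.7% and 39.9% lay on transcripts annotated as protein coding, so that these sums include other transcripts of the gene.

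The libraries held 43385516 to 134042284 estimated counts. Markers of mature vomeronasal neurons summed to between 1400 and 1950 CPM (counts scaled to library size, with edgeR's TMM normalization) in the 18 libraries, and the organ's label thus matched its markers. All libraries are labelled female, but Smad4 flox/flox replicate 3 of the AP-2εCre line held 43.4 CPM of the Y-linked gene Ddx3y. The medians of both gene sets in the comparisons that use it are also given without it, except with Smad4 flox/flox controls alone, and the other gene lists were not fitted again. Smad4 itself, counted over its whole length in all cells, differed from the 6 controls by a log2 fold change of -0.09 (standard error (SE) 0.30, adjusted p = 0.955) in AP-2εCre cKO and -0.35 (SE 0.09, adjusted p = 0.909) in OMPCre cKO. Library names in the deposited data follow 2 forms, and the form that joins the line's name to a number holds replicate 3 of every OMPCre group and, in the AP-2εCre line, cKO replicate 1 and replicate 3 of both controls.

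In the OMPCre line, proliferation genes were lower in cKO than in both kinds of control. The 14 S-phase genes summed to 185, 195 and 144 CPM in the cKO libraries, to 207, 227 and 211 CPM in Smad4 flox/flox controls, while heterozygotes had 235, 213 and 222 CPM. The 40 mitosis genes summed to 449, 450 and 343 CPM in cKO, against 474, 553 and 577 CPM and 502, 469 and 586 CPM in the controls. All 3 cKO libraries lay below all 6 controls in both sums, and replicate 3 lay lowest. All 14 S-phase genes had a negative log2 fold change, with a median of -0.25, as did 39 of 40 mitosis genes, with a median of -0.39, while the median of all 18623 genes tested was 0.0. No gene of either set passed the adjusted threshold in edgeR's quasi-likelihood test, where 0 genes of all (0.0%) did. An unadjusted p under 0.05 with a lower level was seen for 7 of 14 S-phase genes and 16 of 40 mitosis genes, against 1.88% of all genes, and for none with a higher level, against 2.06% of all.

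The 6 subunits of the MCM helicase had a median log2 fold change of -0.37 in this line. Of these, 5 subunits were lower at an unadjusted p under 0.05, against 1.88% of all genes. Mcm3 had 9.74, 11.5 and 8.03 CPM in cKO, 13.9, 15.6 and 13.9 CPM in Smad4 flox/flox controls, while heterozygotes had 15.8, 14.5 and 14.7 CPM. The 3 cKO libraries were all below the 6 controls, with a mean of 9.75 ± 1.73 CPM (SD, n = 3) against 14.7 ± 0.803 CPM (n = 6). Its log2 fold change was -0.59 (SE 0.12, adjusted p = 0.529 by edgeR), an exact permutation test gave p = 0.0119, below which this design cannot go, and DESeq2 gave an adjusted p of 0.00452. Mcm5 had 9.94, 11.4 and 7.68 CPM in cKO and 12.7 to 15.8 CPM in the controls, with a log2 fold change of -0.55 (SE 0.13, adjusted p = 0.909). Mcm2 had 16.2, 16.2 and 12.7 CPM in cKO and 16.6 to 20.1 CPM in the controls, so that the groups were separate by a narrow gap, with a log2 fold change of -0.36 (SE 0.10, adjusted p = 1.0).

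Of the remaining S-phase genes, few were separate from the controls. Rrm2, a subunit of the enzyme that makes deoxynucleotides, was the other S-phase gene whose groups did not overlap, with 14.8, 14.3 and 6.8 CPM in cKO and 15.5 to 19.7 CPM in the controls. Pcna had 49.6, 43.0 and 35.4 CPM in cKO and 47.0 to 56.9 CPM in the controls, which overlap (log2 fold change -0.26, SE 0.11, adjusted p = 1.0). None of the 4 genes of origin licensing and firing had an unadjusted p under 0.05, although Cdc6, which loads the helicase, had the log2 fold change of largest size in the set, -0.71 (SE 0.34). Cdt1, its partner in loading, had -0.11 (SE 0.15).

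Among mitosis genes, Bub1b, a kinase of the spindle checkpoint, had 6.01, 4.5 and 4.56 CPM in OMPCre cKO, 6.83, 7.9 and 9.22 CPM in Smad4 flox/flox controls, while heterozygotes had 8.2, 7.85 and 10.8 CPM. The groups did not overlap, and its log2 fold change was -0.75 (SE 0.17, adjusted p = 0.909 by edgeR, 0.0321 by DESeq2). Mcm3 and Bub1b were the 2 genes of the 54 that DESeq2 called, where it called 0.226% of all genes. Cdc20, which triggers the exit from mitosis, had 5.31, 5.64 and 4.69 CPM in cKO and 6.5 to 9.0 CPM in the controls (log2 fold change -0.55, SE 0.14, adjusted p = 0.909).

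Top2a had 30.5, 27.5 and 24.5 CPM in OMPCre cKO and 30.8 to 45.7 CPM in the controls, so that cKO replicate 1 lay just below the lowest control (log2 fold change -0.52, SE 0.14, adjusted p = 0.909). Cyclin A2 (Ccna2) had 16.8, 15.8 and 10.2 CPM in cKO and 17.8 to 21.9 CPM in the controls. Cdk1, the kinase that drives entry into mitosis, had 7.14, 6.76 and 4.45 CPM in cKO and 7.65 to 8.88 CPM in the controls. In both genes the groups were separate, and replicate 3 was far lower than the other cKO libraries. Anln, a scaffold of the cleavage furrow, had 12.0, 8.98 and 10.8 CPM in cKO and 12.5 to 15.5 CPM in the controls, and here replicate 2 was lowest. Its log2 fold change of -0.39 (SE 0.12, adjusted p = 1.0) turned to 0.10 with counts from length-scaled TPM.

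Groups did not overlap, with cKO lower, for 4 S-phase genes (Mcm2, Mcm3, Mcm5 and Rrm2) and 9 mitosis genes (Top2a, Cdk1, Ccnb1, Ccnb2, Ccna2, Cdc20, Bub1b, Prc1 and Anln), against 0.94% of all genes. With cKO higher, no gene of either set was separate, against 1.41% of all. Mki67 (chr7:135689784-135716361, GRCm38, minus strand), the standard stain for cycling cells, overlapped, with 64.0, 74.2 and 43.8 CPM in cKO and 62.9 to 110.0 CPM in the controls (log2 fold change -0.51, SE 0.22, adjusted p = 1.0). Of all genes, 1.88% were lower at an unadjusted p under 0.05. By role, cyclins and mitotic kinases had a median of -0.48 with 6 of 11 such genes, and chromosome structure -0.51 with 3 of 5. Spindle motors had -0.35 with 3 of 6, and cytokinesis -0.32 with 2 of 6. The passenger complex had -0.39 with 1 of 4, and kinetochore and checkpoint -0.33 with 1 of 8. Racgap1, a regulator of the cleavage furrow that is also among the more abundant of these transcripts, was the exception, with 55.4, 58.7 and 61.4 CPM in cKO and 49.9 to 66.4 CPM in the controls.

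Replicate 3 of the OMPCre cKO libraries carried much of the size of this difference. It held the lowest level of the 9 libraries of its line for 11 of 14 S-phase genes and 34 of 40 mitosis genes. Without it, the medians were -0.18 for S-phase and -0.20 for mitosis genes, and 4 and 8 genes had an unadjusted p under 0.05. In that fit 3.59% of all genes did so in either direction, against 3.95% with no library left out. The S-phase count was also 4 without Smad4 flox/flox replicate 1 or heterozygote replicate 1. Within the libraries named by letter and number, 2 cKO against 4 controls, the median differences of log2(CPM + 1) were -0.18 and -0.14, with 14 of 14 and 34 of 40 genes lower. In the other form of name, 1 cKO against 2 controls, they were -0.43 and -0.74. Bub1b, Ccnb2, Mcm3, Mcm5 and Cdc20 also belong to a cell cycle list that the study drew from these libraries, which makes that list no independent evidence. The study also counted cells stained for Ki67 protein in the epithelium. It reported more of them in younger AP-2εCre cKO and in central regions of the adult OMPCre cKO epithelium. The OMPCre count had the opposite direction to the RNA here, at another age and without the other tissues of the organ.

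**Figure D2:**
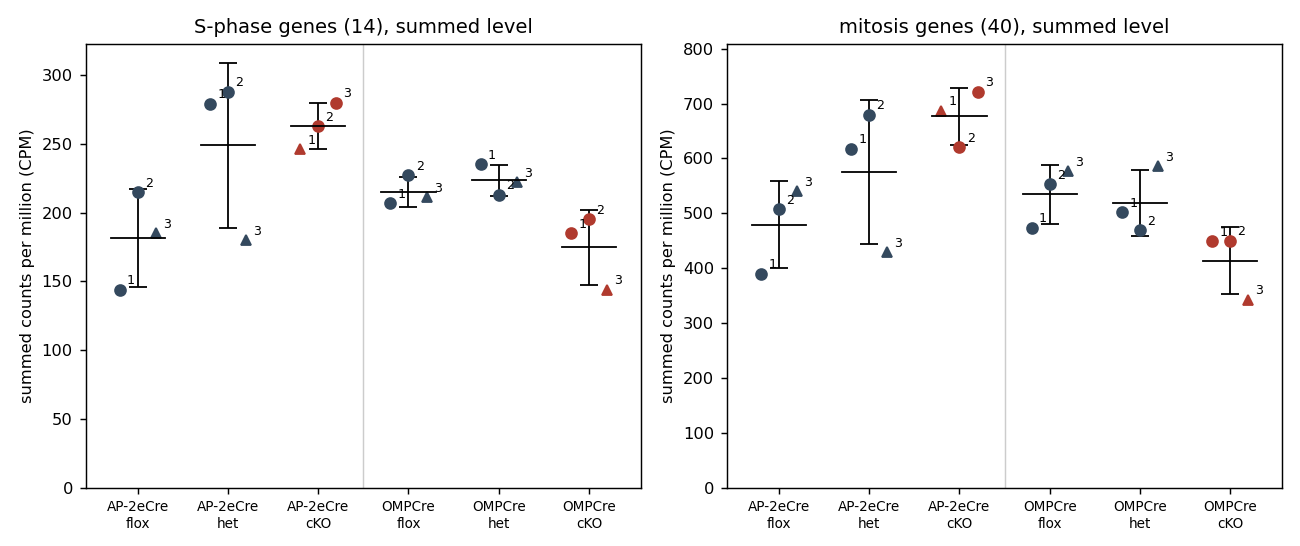
Summed CPM of the 14 S-phase genes (left) and 40 mitosis genes (right) in each of the 18 libraries (vertical axes, starting at 0) by group (horizontal axis). Points are libraries with their replicate number, triangles mark library names made of the line's name and a number, horizontal lines are means and bars the SD (n = 3). OMPCre cKO libraries lie below all OMPCre controls, and AP-2εCre cKO libraries lie above the Smad4 flox/flox controls of their line but overlap the heterozygotes.

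In the AP-2εCre line the direction was the opposite, and the spread among controls was larger. S-phase genes summed to 246, 263 and 280 CPM in cKO, to 144, 215 and 185 CPM in Smad4 flox/flox controls, while heterozygotes had 279, 288 and 180 CPM. Mitosis genes summed to 687, 621 and 722 CPM in cKO, against 390, 508 and 540 CPM and 618, 680 and 429 CPM in the controls. The cKO libraries were above all Smad4 flox/flox controls and heterozygote replicate 3 in both sums, whereas heterozygote replicate 2 reached into or past their range in both and replicate 1 for S-phase genes. All 14 S-phase genes were on the higher side, with a median log2 fold change of 0.31, and 39 of 40 mitosis genes, with a median of 0.36, while the median of all 18495 genes tested was 0.0. No gene was called by edgeR, which called 0.0378% of all genes, or by DESeq2, which called 1.67%. An unadjusted p under 0.05 with a higher level was seen for 1 S-phase gene and 6 mitosis genes, against 4.18% of all genes, and with a lower level for 1 mitosis gene, against 6.04%. The S-phase share was thus 1 of 14, close to what all genes show.

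Mki67 had 125, 107 and 122 CPM in AP-2εCre cKO, 59.7, 60.9 and 90.4 CPM in Smad4 flox/flox controls, while heterozygotes had 91.6, 107 and 48.0 CPM. Its lowest cKO library was above the highest control by less than the rounding of these values, and its log2 fold change was 0.63 (SE 0.23, adjusted p = 0.383, exact permutation p = 0.0238). It was the only gene of the 54 whose groups did not overlap with cKO higher, against 2.21% of all genes, and no gene was separate with cKO lower, against 2.85%. Incenp (chr19:9872296-9899551, GRCm38, minus strand), which anchors the chromosomal passenger complex, had 15.4, 17.7 and 19.6 CPM in cKO and 10.6 to 15.6 CPM in the controls (log2 fold change 0.44, SE 0.13, adjusted p = 0.324). Plk1, a kinase needed for spindle formation, had 7.13, 8.44 and 9.06 CPM in cKO and 3.67 to 7.51 CPM in the controls (log2 fold change 0.62, SE 0.21, adjusted p = 0.359).

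The large kinetochore protein Cenpf had 26.5, 23.3 and 20.5 CPM in AP-2εCre cKO and 13.1 to 20.9 CPM in the controls. Ube2c, the ubiquitin-conjugating enzyme of the anaphase-promoting complex, had 9.03, 11.0 and 14.1 CPM in cKO and 4.75 to 9.25 CPM in the controls. Prc1, which bundles the central spindle, had 21.4, 19.5 and 20.1 CPM in cKO and 10.3 to 19.5 CPM in the controls. In each of these 3 genes 1 cKO library reached into the range of the controls or touched it. The single S-phase gene with an unadjusted p under 0.05 was Cdc45, which activates the helicase, with 6.79, 6.31 and 7.28 CPM in cKO and 4.76 to 6.57 CPM in the controls (log2 fold change 0.34, SE 0.14, adjusted p = 0.457).

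The other genes given in every library for reference were less separate in this line. Mcm2 had 25.2, 23.9 and 25.5 CPM in AP-2εCre cKO and 12.2 to 24.8 CPM in the controls (log2 fold change 0.36, SE 0.19, adjusted p = 0.557). Top2a had 60.7, 50 and 63.1 CPM in cKO and 28.9 to 62.9 CPM in the controls, and Cdk1 had 9.0, 11.2 and 12.9 CPM in cKO and 6.11 to 11.4 CPM in the controls. Pcna had 41.1, 59.7 and 58.1 CPM in cKO and 33.0 to 61.4 CPM in the controls, where heterozygote replicates 1 and 2 were highest. Melk went against the set, with 6.65, 11.5 and 8.94 CPM in cKO and 9.81 to 15.9 CPM in the controls (log2 fold change -0.47, SE 0.20, adjusted p = 0.457). Medians by role lay between 0.22 for nucleotide supply and the clamp and 0.43 for both the passenger complex and the kinetochore and checkpoint genes.

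**Figure D3:**
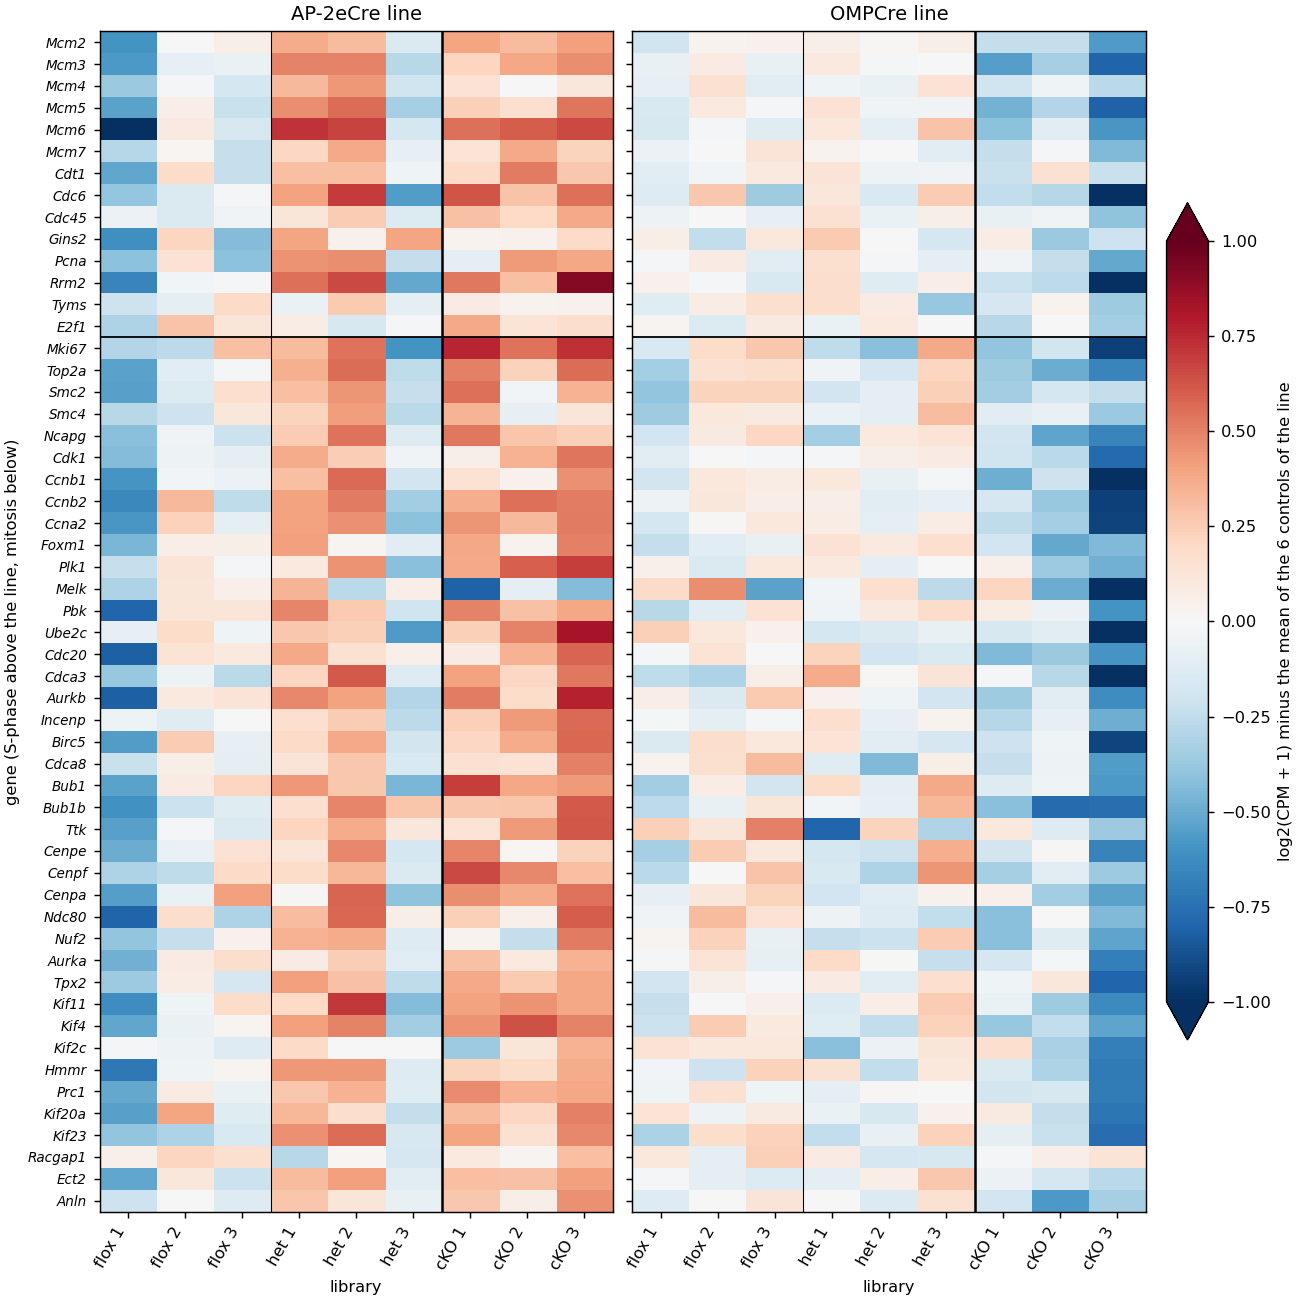
Each cell is log2(CPM + 1) of 1 gene (rows) in 1 library (columns) minus the mean of the 6 controls of its line, on a scale that saturates beyond 1 and -1. OMPCre cKO replicate 3 and AP-2εCre Smad4 flox/flox replicate 1 form the bluest columns, and AP-2εCre heterozygote replicates 1 and 2 resemble the cKO columns of their line.

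The kind of control mattered in the AP-2εCre line. Against Smad4 flox/flox controls alone, the median log2 fold changes were 0.51 and 0.56, and 8 S-phase and 21 mitosis genes were higher at an unadjusted p under 0.05, which 8.09% of all genes reached in either direction. Against heterozygotes alone they were 0.12 and 0.20, with 0 and 1 genes against 9.1% of all. Heterozygotes themselves were higher than Smad4 flox/flox controls, with a median of 0.45 for S-phase and 0.34 for mitosis genes. There 0 genes of the sets passed the adjusted threshold, which 0.0224% of all genes did, and 3 of the 54 had an unadjusted p under 0.05 against 5.18% of all. The 3 were Bub1b (log2 fold change 0.69, SE 0.19), Kif23 (0.69, SE 0.24) and, lower, Racgap1 (-0.28, SE 0.11). Without heterozygote replicate 3, 9 S-phase and 19 mitosis genes were higher at an unadjusted p under 0.05, with medians of 0.59 and 0.52, and without Smad4 flox/flox replicate 2 the counts were 5 and 4. Without heterozygote replicate 1 they were 0 and 1. In these fits, in that order, 7.66%, 5.53% and 3.88% of all genes had an unadjusted p under 0.05 in either direction. The mitosis median was 0.17 without Smad4 flox/flox replicate 1, and without replicate 3, which expressed Y-linked genes, the medians were 0.45 and 0.45. Of the 21 markers of marrow and blood cells described further on, 17 were higher in heterozygotes as well, with a median of 0.34 and 0 at an unadjusted p under 0.05, and their part was not tested. Within the libraries named by letter and number the median differences of log2(CPM + 1) between heterozygotes and Smad4 flox/flox controls were 0.58 and 0.58 (2 against 2), and in the other form they were -0.10 and -0.16 (1 against 1), so that the direction did not hold there.

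Single libraries weighed on the counts of this line too. Smad4 flox/flox replicate 1 held the lowest level of its line for 12 of 14 S-phase and 33 of 40 mitosis genes, and without it the medians were 0.21 and 0.26. Without heterozygote replicate 2, they were 0.41 and 0.48, and 5 S-phase and 16 mitosis genes were higher at an unadjusted p under 0.05, and without heterozygote replicate 1 these counts were 3 and 12. Without cKO replicate 1 they were 0 and 3, and without cKO replicate 3 they were 0 and 2. All genes with an unadjusted p under 0.05, in either direction, were then 9.71% and 6.78%, against 10.2% with no library left out. Without heterozygote replicate 2 this share was 10.0%, and without heterozygote replicate 1 it was 9.16%. The S-phase count was also 0 without any 1 of the Smad4 flox/flox replicates or heterozygote replicate 3. Without Smad4 flox/flox replicate 3, which expressed Y-linked genes, the medians were 0.29 and 0.34. Within the libraries named by letter and number the median differences of log2(CPM + 1) were 0.25 and 0.28 (2 cKO against 4 controls), and in the other form 0.35 and 0.48 (1 against 2).

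In the OMPCre line the controls lay close together. Heterozygotes differed from Smad4 flox/flox controls by a median of 0.05 for S-phase and -0.04 for mitosis genes, and 0 of the 54 genes had an unadjusted p under 0.05, against 5.54% of all genes, or passed the adjusted threshold, which 0.0441% of all did. Leaving out 1 library at a time moved the mitosis median between -0.10 and 0.04. Against Smad4 flox/flox controls alone the cKO medians were -0.25 and -0.43, and against heterozygotes alone -0.27 and -0.35.

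Whether the cKO differed from its controls unequally in the 2 lines was tested by an interaction term in a fit of 18 libraries. All 14 S-phase genes and 39 of 40 mitosis genes had a higher log2 fold change in the AP-2εCre than in the OMPCre line, with medians of 0.51 and 0.75 for the difference. No gene passed the adjusted threshold, and none of all 19465 genes did (0.0%). At an unadjusted p under 0.05, 9 of 14 S-phase and 27 of 40 mitosis genes had a higher effect in the AP-2εCre line, against 2.51% of all genes, and none a lower one, against 2.4%. Without OMPCre cKO replicate 3 these counts were 4 and 16, with medians of 0.41 and 0.59, and without AP-2εCre cKO replicate 3 they were 7 and 17. All genes with an unadjusted p under 0.05, in either direction, were then 5.25% and 3.99%, against 4.91% with no library left out. Without the library that expressed Y-linked genes, the medians were 0.52 and 0.75. Incenp had the smallest p, with a difference of 0.74 (SE 0.17, adjusted p = 0.982), and Bub1b and Mki67 each had a difference of 1.14 (SE 0.30 and 0.34). The exception was Melk, whose log2 fold change was -0.47 in one line and -0.43 (SE 0.33) in the other.

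**Figure D4:**
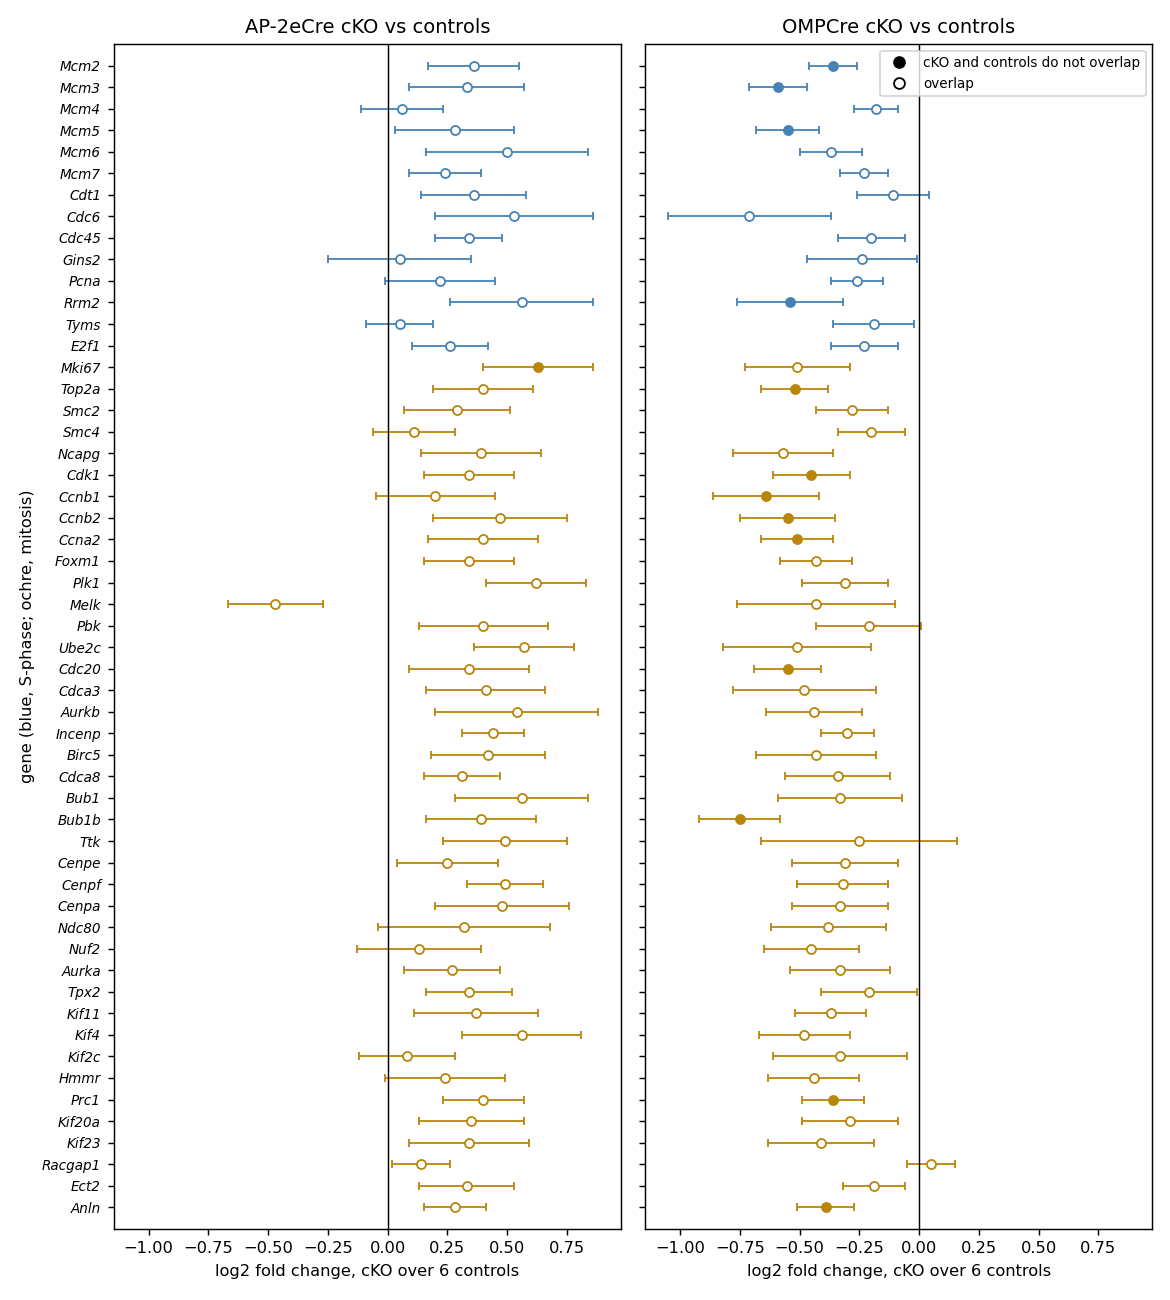
Log2 fold change of each gene (rows), cKO over the 6 controls, in the AP-2εCre (left) and OMPCre (right) line, with bars of 1 SE. Filled points mark genes whose cKO and control libraries do not overlap, 1 gene on the left and 13 on the right. Melk is the gene left of 0 on the left, and Racgap1 the gene right of 0 on the right.

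Further cell cycle genes, listed by textbook role, gave the same directions with smaller medians. Of 45 other S-phase genes, 40 were lower in OMPCre cKO with a median of -0.16, 9 of them with an unadjusted p under 0.05 against 1.88% of all genes. In AP-2εCre cKO 29 were higher with a median of 0.09, but 1 of the 45 had an unadjusted p under 0.05 against 4.18% of all genes. Of 71 other mitosis genes, 65 were lower in OMPCre cKO (median -0.32, 10 with an unadjusted p under 0.05) and 57 higher in AP-2εCre cKO (median 0.21, 9 genes). Knl1, which binds Bub1b at the kinetochore, had a log2 fold change of -0.96 (SE 0.22, adjusted p = 0.909) in OMPCre cKO. Of 29 genes of G1 cyclins, CDKs and pocket proteins, which act before S phase, 20 were lower in OMPCre cKO (median -0.09), 6 of them with an unadjusted p under 0.05 against 1.88% of all genes and 5 without overlap against 0.94%. In AP-2εCre cKO 22 were higher (median 0.06), 4 of them with an unadjusted p under 0.05 against 4.18% of all. Of 15 CDK inhibitors and exit genes tested, 1 was higher and 2 were lower at an unadjusted p under 0.05 in OMPCre cKO (median -0.01) and 1 was higher in AP-2εCre cKO (median 0.16), with the inhibitor Cdkn2c at 0.45 (SE 0.12, adjusted p = 0.308) in AP-2εCre cKO. No gene of these lists was called in either comparison.

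Markers of blood-forming cells, which divide in marrow close to the organ, were mostly on the same side of their controls as the proliferation genes. Of the 21 markers of marrow and blood cells, 20 were lower in OMPCre cKO (median -0.50), 6 of them with an unadjusted p under 0.05 against 1.88% of all genes. In AP-2εCre cKO 17 were higher (median 0.38), and 1 of the 21 had an unadjusted p under 0.05, a share close to the 4.18% of all genes. Slc4a1, the anion exchanger of red cells and their precursors, had 57.9, 60.2 and 16.8 CPM in OMPCre cKO and 63.1 to 93.0 CPM in its controls, and 112, 73.8 and 96.4 CPM in AP-2εCre cKO and 11.1 to 89.7 CPM in its controls. Mpo, a granule enzyme of granulocyte precursors, had 8.43, 15.0 and 3.52 CPM in OMPCre cKO and 10.9 to 21.9 CPM in its controls, and 24.5, 44.0 and 49.9 CPM in AP-2εCre cKO and 5.9 to 41.2 CPM in its controls. Replicate 3 of the OMPCre cKO, lowest for most proliferation genes, was also lowest of its line for 9 of the 21 markers, and AP-2εCre heterozygote replicate 3 for 10. No marker was at 0. The whole list, led by Ltf and the globins, summed to 7160 to 8580 CPM in OMPCre cKO and 6440 to 10600 CPM in its controls, and to 6980 to 9060 and 7390 to 9540 CPM in the AP-2εCre line. Other libraries broke the parallel. AP-2εCre Smad4 flox/flox replicate 1, lowest of its line for most proliferation genes, summed to 9320 CPM of these markers. OMPCre heterozygote replicate 3 had the highest mitosis sum of its line, 586 CPM, and the lowest sum of these markers, 6440 CPM. The part of these cells in the results above was not tested.

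**Figure D5:**
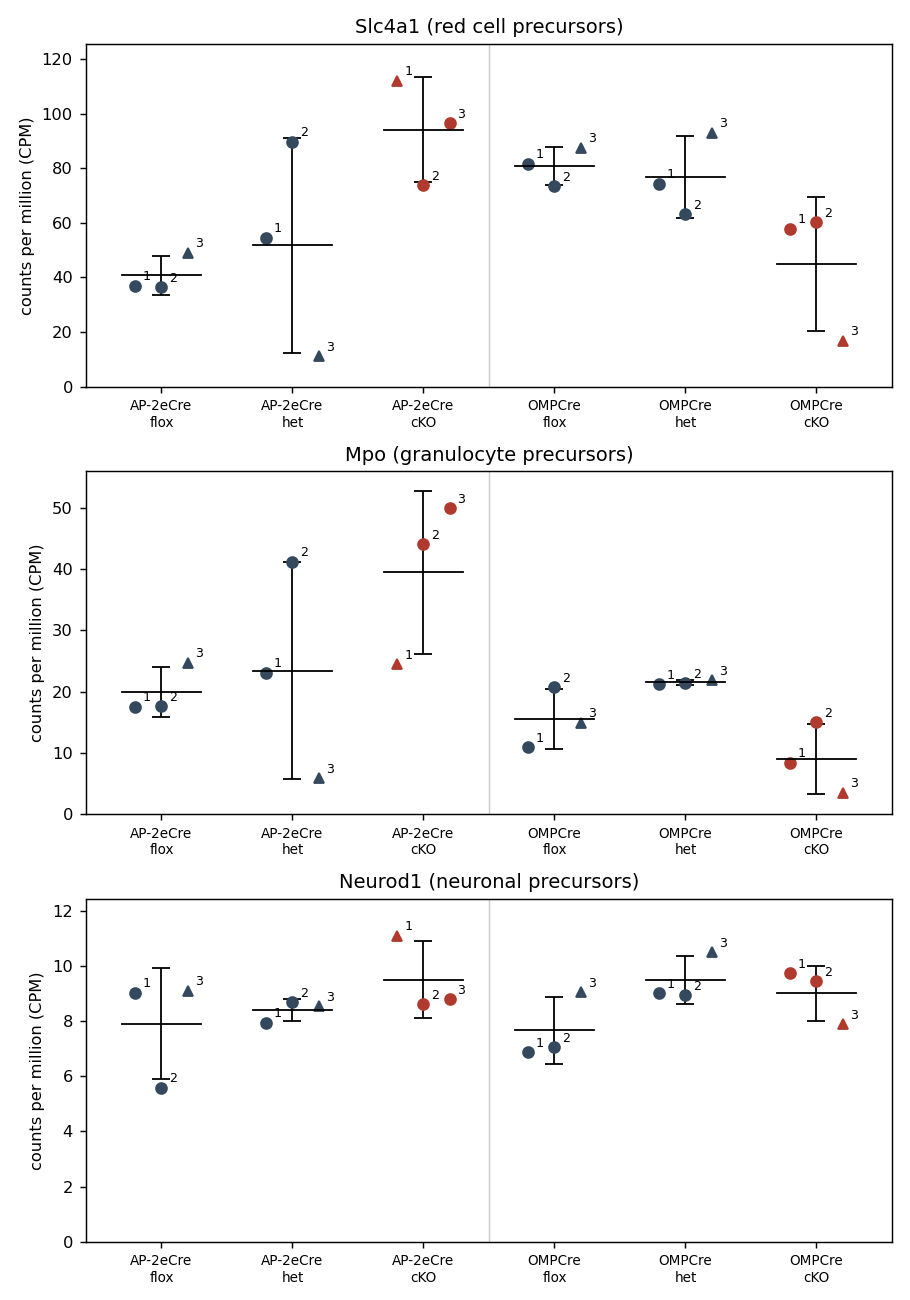
CPM (vertical axes, starting at 0) of 2 markers of blood-forming cells (Slc4a1 and Mpo) and 1 of the neuronal lineage (Neurod1) in each of the 18 libraries by group, drawn as in the plot of summed levels, with the mean and SD (n = 3). Slc4a1 and Mpo are lowest of their line in OMPCre cKO replicate 3 and AP-2εCre heterozygote replicate 3. Neurod1 lies between 5.58 and 11.1 CPM over the 18 libraries.

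Markers of neuronal progenitors showed no shared direction. Of 15, 9 were lower in OMPCre cKO (median -0.05, 0 with an unadjusted p under 0.05), and 9 were lower in AP-2εCre cKO (median -0.05), where 3 were higher (against 4.18% of all genes) and 1 lower (against 6.04%) at an unadjusted p under 0.05 and 1 was higher without overlap. Neurod1, made in precursors about to become neurons, had 9.73, 9.45 and 7.88 CPM in OMPCre cKO and 6.87 to 10.5 CPM in its controls. Of 10 markers of immature neurons, 10 were higher in AP-2εCre cKO (median 0.32), 4 of them with an unadjusted p under 0.05 against 4.18% of all genes and 1 without overlap against 2.21%. In OMPCre cKO 8 were higher (median 0.16), 2 of them with an unadjusted p under 0.05 against 2.06% and 1 without overlap against 1.41%. Of 12 markers of mature vomeronasal neurons, 1 was higher and 2 were lower at an unadjusted p under 0.05 in AP-2εCre cKO (median 0.09). In OMPCre cKO the median was -0.11, but the 3 markers with an unadjusted p under 0.05 were higher, against 2.06% of all genes: Tfap2e (log2 fold change 0.27), Meis2 (0.20) and Gnai2 (0.19).

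Markers of some other tissues of the dissected organ were mostly lower in AP-2εCre cKO, but no marker in this paragraph passed the adjusted threshold. Markers of glands and sustentacular cells summed to 49100 to 82600 CPM in AP-2εCre cKO and 82800 to 172000 CPM in its controls, with 9 of 11 lower (median -0.71). All 10 markers of motile ciliated cells were lower (median -0.47), but their sums overlapped, with 350 to 621 CPM in cKO and 613 to 752 CPM in the controls. In each of these lists 5 markers had an unadjusted p under 0.05, against 6.04% of all genes. In OMPCre cKO the medians were -0.21 and -0.08, with 2 and 0 such markers against 1.88% of all. The medians in AP-2εCre and OMPCre cKO were 0.05 and 0.05 for macrophages and T cells, 0.01 and -0.01 for endothelium and pericytes, 0.15 and -0.14 for bone and cartilage, and -0.06 and -0.11 for ensheathing glia and Schwann cells. At an unadjusted p under 0.05, 3 of 13 macrophage and T cell markers, 1 of 10 of endothelium and 1 of 9 of glia were higher in AP-2εCre cKO, against 4.18% of all genes. There 2 of glia were lower, against 6.04%, and in OMPCre cKO 2 of glia were lower, against 1.88%. Without overlap, 2 macrophage and T cell markers were higher in AP-2εCre cKO, against 2.21% of all, and 1 of glia lower, against 2.85%. Their part in the levels of proliferation genes was not tested.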

How the data were processed

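Groups were taken from the sample labels and the genotypes of the controls from the study's methods. The authors quantified the reads, which were single-end, 75 bp and directional, with Salmon 0.14.0 per the labels, and deposited, for 116248 transcripts each, estimated counts and TPM. Estimated counts, as deposited, are not normalized. TPM, as deposited, is scaled to 1000000 per library and was used for levels between genes and for 1 alternative. GENCODE vM21 (GRCm38, mm10) paired 116072 transcripts with genes, the others holding at most 0.0324% of a library. Estimated counts were summed per gene and rounded. The authors' own test, DESeq2 1.22.2 per the labels, was not used here.

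Each cKO group was compared with the 6 controls of its line by edgeR 4.0.16 (R 4.3.3), with TMM normalization, filterByExpr, the quasi-likelihood test and Benjamini-Hochberg adjustment over all genes tested, with genes called where the adjusted p was under 0.05. SE is the size of the log2 fold change divided by the square root of F. Single genes were also compared on log2(CPM + 1) by a two-sided exact permutation test over 84 arrangements. Alternatives, given with the limits at the end, used DESeq2 1.42.0 and other settings. The tests were tested on simulated data. Python 3.11.15 with pandas 2.3.3 made the tables, and matplotlib 3.10.9 drew the plots.

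The genes, the lists and the motifs were chosen with earlier results of these data known. Named genes are Mki67, Top2a, Cdk1, Mcm2 and Pcna, the 8 genes with the smallest edgeR p in each line, and of other lists up to 3 genes with the smallest p. Others named (Rrm2, Cdc6, Cdt1, Racgap1, Kif23, Neurod1, Slc4a1 and Mpo among them) were singled out after their values were seen. The labels call replicates biological, and no 2 libraries of a group were alike within counting noise. Of the listed symbols, Lcn14 and Xist matched no gene and were not used. The values of 1 other listed gene are not reported here. p-values cover the spread between these libraries.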

Additional observations from a re-analysis of the deposited data

Results flagged for a closer look

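Dixon's criterion was applied to the 6 controls of each line, for the 18 named genes and the 2 summed levels, 40 sets of values in all, of which 2 passed it. Chance passes about 1 set in 20. Cdc20 was at 3.81 CPM in Smad4 flox/flox replicate 1 of the AP-2εCre line, far below its other 5 controls, the library that was also lowest of its line for most proliferation genes. Mcm2 was at 16.6 CPM in Smad4 flox/flox replicate 1 of the OMPCre line, far below the other controls of that line and just above the highest OMPCre cKO library.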

How the results depend on the processing

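Directions of both medians held in each line under every alternative run. Leaving out 1 library at a time gave medians of 0.21 to 0.41 (S-phase) and 0.26 to 0.48 (mitosis) in the AP-2εCre line, and of -0.37 to -0.18 and -0.53 to -0.20 in the OMPCre line. The counts at an unadjusted p under 0.05 then ranged from 0 to 5 and 2 to 16 genes higher in the AP-2εCre line, and from 4 to 8 and 8 to 19 genes lower in the OMPCre line. The share of all genes at that p, in either direction, ranged from 6.78% to 10.7% in the AP-2εCre and from 2.97% to 4.69% in the OMPCre line. In the AP-2εCre line the S-phase count of 1 became 0 when genes were kept from 1 count upward, 0 with counts from length-scaled TPM, 8 with Smad4 flox/flox controls alone, 0 with heterozygotes alone and 5 with all 18 libraries in 1 fit, and the mitosis count of 6 became 21, 1 and 12 under the last 3. In the OMPCre line the S-phase count of 7 became 2, 4 and 3 under those 3 settings and 3 with length-scaled TPM, and the mitosis count of 16 became 8 and 7 with either control alone and 7 with length-scaled TPM. DESeq2 called 1 S-phase and 1 mitosis gene of the OMPCre line, where edgeR called 0. With length-scaled TPM, the log2 fold change of Mcm5 in the AP-2εCre line became -0.02, and those of Cenpf and Anln in the OMPCre line 0.37 and 0.10. In the comparison of heterozygotes with Smad4 flox/flox controls of the AP-2εCre line, DESeq2 gave 5 S-phase and 6 mitosis genes higher at an unadjusted p under 0.05, all 18 libraries in 1 fit gave 8 and 8, and the mitosis median was 0.18 with length-scaled TPM and 0.21 with the unassigned library added after seeing the data. The counts of the difference between lines became 4 and 19 with length-scaled TPM. The cause of these shifts was not tested, beyond the smaller number of libraries in the fits with 1 kind of control.

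Replicate numbers were not taken as pairs, because the labels name nothing shared and not every same-numbered pair of libraries deviated together with r over 0.1. In the AP-2εCre line r ranged from -0.308 to 0.192. In the OMPCre line all 9 pairs were positive, from 0.0218 to 0.523, with replicate 2 of the Smad4 flox/flox controls at 0.0218 and 0.0405 and correlating better with cKO replicate 1 (r = 0.157) than with its own number. With the replicate number as a block, the AP-2εCre S-phase count became 0, the OMPCre counts 8 and 15, and the medians were 0.33 and 0.38 in the AP-2εCre and -0.26 and -0.39 in the OMPCre line. Depth limits genes such as Ndc80, with 52 counts in its lowest library.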

Other observations

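The AP-2εCre library whose title and genotype label disagree had 170 CPM summed over S-phase genes and 417 CPM over mitosis genes. It had 51.3 CPM of Mki67, 34.3 CPM of Top2a, 6.74 CPM of Cdk1, 14.3 CPM of Mcm2 and 38.2 CPM of Pcna. Its Slc4a1 was at 22.6 CPM and its Mpo at 5.1 CPM. Added to the heterozygotes, an alternative chosen after seeing the data, it gave median log2 fold changes of 0.36 and 0.42 in AP-2εCre cKO.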
